A study of Drosophila melanogaster with 8 samples.

Results

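Chromatin immunoprecipitation followed by sequencing (ChIP-seq) of CDK9 was examined at 6 genes that encode insulator-binding proteins, their cofactors and GAGA factor: *BEAF-32*, *CTCF*, *su(Hw)*, *Cp190*, *mod(mdg4)* and *Trl*. A CDK9 peak was assigned to a gene when it overlapped the gene body or lay within 1500 bp of any annotated start, which gave 35 of the 10909 peaks in the 4 peak lists and concerned 6 of 18277 annotated genes. Kc167 cells, an established female embryonic hemocyte line of *Drosophila melanogaster* with no other genotype named, were collected 3 days after transfection with no RNA (mock) or with RNA directed against *AGO2* (siAGO2). There were 2 CDK9 libraries in each group, each with a paired input that served as the background of peak calling and is not itself described. No source names separate cultures for the libraries, so spreads between them may be technical. RNA levels were not analysed here, so the depth of the *AGO2* knockdown was not checked in these libraries. The paper reports a check of knockdown efficiency by Western blotting.

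Insulators are DNA elements that separate neighbouring regulatory domains and help to fold chromosomes. In *Drosophila*, the DNA-binding proteins BEAF-32, CTCF and Su(Hw) recognise different sequences and share the cofactors CP190 and Mod(mdg4), which carry BTB protein interaction domains. GAGA factor, the product of *Trl*, also has a BTB domain, binds GA repeats, recruits nucleosome remodelers and is associated with promoters that hold paused RNA polymerase II (Pol II). CDK9 is the kinase of P-TEFb, which releases paused Pol II into elongation. AGO2, the effector of small interfering RNAs, is also found on chromatin and has been linked to CP190 and CTCF in fly cells.

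The sequence under the main summits of *Trl* is shown first because the gene encodes the factor that reads GA repeats. Beside it, 2 regions of *mod(mdg4)* are shown as examples of peaks that stood lower in their lists. Overlapping peaks of the 4 lists were merged into regions, which were lettered from 5′ to 3′ along each gene. Each sequence spans 60 bp on either side of the summit with the highest −log10 q, was read from the RefSeq genome (Release 6, dm6) and is written 5′ to 3′ on the strand of the gene, the minus strand. Capitals mark GAGAG on either strand, so CTCTC is a copy on the opposite strand, and overlapping copies run together. The 3 *Trl* sequences are intronic. Of the *mod(mdg4)* sequences, region B is coding and region C is intronic.
Trl A, chr3L:14760090-14760210: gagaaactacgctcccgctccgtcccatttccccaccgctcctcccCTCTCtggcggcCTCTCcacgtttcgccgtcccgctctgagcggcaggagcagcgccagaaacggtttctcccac
Trl B, chr3L:14756462-14756582: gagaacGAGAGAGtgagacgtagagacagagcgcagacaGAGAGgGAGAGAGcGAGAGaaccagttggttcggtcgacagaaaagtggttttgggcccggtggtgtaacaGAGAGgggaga
Trl C, chr3L:14755219-14755339: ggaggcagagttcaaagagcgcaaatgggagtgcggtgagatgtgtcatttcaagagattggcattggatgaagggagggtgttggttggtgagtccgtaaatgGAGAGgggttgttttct
mod(mdg4) B, chr3R:21376842-21376962: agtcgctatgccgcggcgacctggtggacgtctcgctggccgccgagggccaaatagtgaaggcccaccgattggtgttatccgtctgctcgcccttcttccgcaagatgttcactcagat
mod(mdg4) C, chr3R:21376400-21376520: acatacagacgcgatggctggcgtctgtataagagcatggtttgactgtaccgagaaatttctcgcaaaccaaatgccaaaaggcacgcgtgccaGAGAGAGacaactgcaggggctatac

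The stretch at Trl B held 7 copies of GAGAG within 121 bp, whereas Trl A held 2, Trl C held 1, mod(mdg4) C held 2 and mod(mdg4) B held 0. Trl A was the most GC-rich of the 5 stretches (66.1%), and Trl C the least (49.6%). A GA-rich run was thus seen at Trl B, not at each *Trl* summit.

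CDK9 peaks were unevenly spread over the 6 genes (the plot of the highest peak by gene). *Trl*, *BEAF-32* and *mod(mdg4)* had a peak in all 4 lists, *Cp190* and *su(Hw)* in the list of mock 2 alone, and *CTCF* in none. The call at *mod(mdg4)* depended on the rule: it had a peak in 3 lists with start windows only, in 2 with the 1707 strongest peaks of every list, and in 1 with peaks above the median of their list. By library, 3 of 6 genes had a peak in mock 1, where 18.6% of all genes did, and 5 of 6 in mock 2, where 23.0% did. The count was 3 of 6 in siAGO2 1 and in siAGO2 2, against 10.8% and 14.9% of all genes. A peak in all 4 lists was found at 7.53% of all genes. The 6 genes held 8 peaks in mock 1, 12 in mock 2, 8 in siAGO2 1 and 7 in siAGO2 2, and *Trl* alone held 21 of the 35 (60%).

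**Figure D1:**
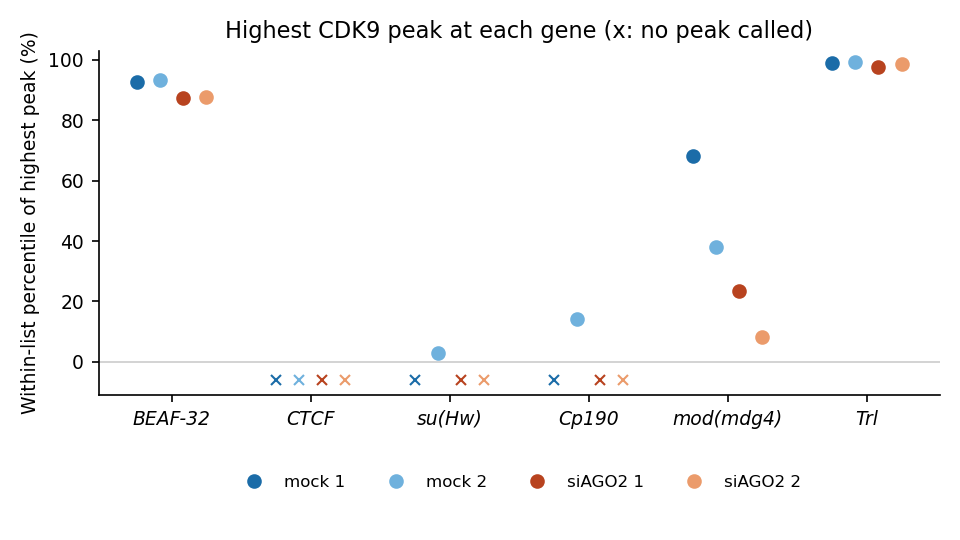
Percentile of the highest CDK9 peak of each gene within its own list (vertical axis, %, by −log10 q), for each of the 4 libraries (colours), with crosses for genes with no peak called. *Trl* lies between 97.8 and 99.3 and *BEAF-32* between 87.4 and 93.2 in every library, while *mod(mdg4)* ranges from 68.2 down to 8.10.

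The lists differed in length and in depth as read from their background. They held 3103, 3804, 1707 and 2295 peaks in mock 1, mock 2, siAGO2 1 and siAGO2 2, and the genome-wide background was 2.29, 1.21, 0.814 and 0.864 reads. Both siAGO2 libraries were thus shallower than both mock libraries, and depth and treatment cannot be told apart by these lists. Mock 1 stood apart with a median peak of 9.17 times the genome background, against 13.2 in mock 2, 18.4 in siAGO2 1 and 16.2 in siAGO2 2. Peaks are compared by percentile within a list (100 is the strongest) as well as by fold enrichment, the ratio of summit reads to local background. A percentile still depends on list length: the same rank from the top gives a lower percentile in a shorter list. As a check of the cell type, peaks lay in all 4 lists at 2 of 10 hemocyte genes, *srp* and *ush*, which encode blood cell transcription regulators, and at 0 of 4 neuronal and 0 of 4 muscle genes. In at least 1 list, however, a peak lay at 3 of 4 neuronal genes (*elav*, *nSyb* and *brp*), at 1 of 4 muscle genes (*Mhc*) and at 6 of 10 hemocyte genes, so these lists do not separate the cell types by presence of a peak. The hemocyte genes *Col4a1* and *vkg* had the same percentiles (16.9 in mock 1 and 34.1 in siAGO2 2), so the same peak may count for both. The hemocyte genes *Hml*, *NimC1*, *eater* and *crq* had no peak in any list.

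*Trl* carried 3 strong CDK9 regions in every library, all with their highest summits in introns. The gene (FBgn0013263, chr3L:14747929-14761049, minus strand) has 4 annotated starts, the first at 14761049 and the inner ones at 14757962, 14757779 and 14757336. Trl A (chr3L:14758885-14760533) lay in the intron that separates the first start from the inner starts, which is 2601 bp long. Trl B (chr3L:14756081-14758282) spanned the 3 inner starts, with its highest summit in the 2353 bp intron beyond them. Trl C (chr3L:14754848-14755880) lay further along the same intron. Apart from 1 weak peak beside Trl C, the gene had no peak further 3′ (the map of peaks along *Trl*).

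**Figure D2:**
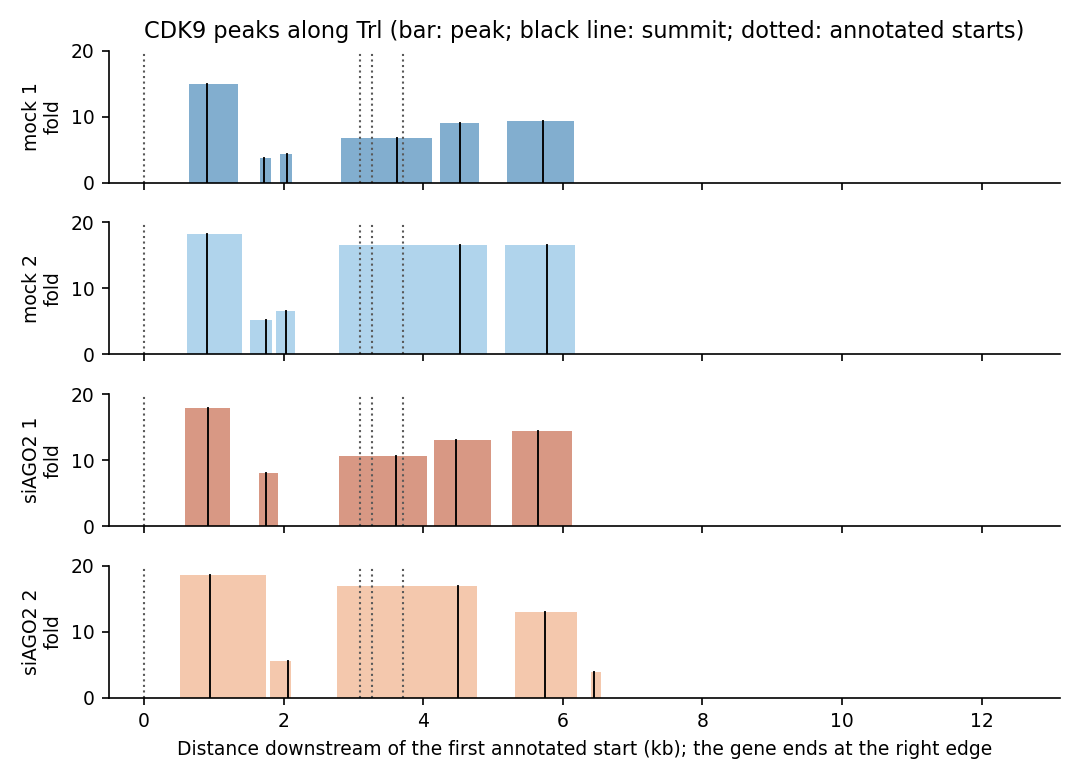
CDK9 peaks along *Trl* in each library: distance downstream of the first annotated start (horizontal axis, kb) against fold enrichment at the summit (vertical axis). Bars span the peaks, black lines mark summits and dotted lines the 4 starts. Trl A, B and C recur at the same distances in the 4 libraries, and the gene is free of peaks from about the middle to its 3′ end.

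Trl A was the strongest region of the 6 genes. Its summit had a fold enrichment of 15.0 in mock 1, 18.3 in mock 2, 18.0 in siAGO2 1 and 18.7 in siAGO2 2, from 70, 88, 44 and 51 reads. It ranked 30th, 27th, 39th and 36th from the top of the respective list, that is at percentiles 99.1, 99.3, 97.8 and 98.5. The fold enrichment was lowest in mock 1 and nearly equal in the other 3 libraries, while both siAGO2 percentiles were below both mock percentiles. Genes with a higher top peak than *Trl* numbered 41, 33, 58 and 48. The highest summit lay 899 to 943 bp downstream of the first start, a range of 44 bp over the 4 libraries, and of the 1022 regions found in every list 20.1% were as tight (median 86 bp, quartiles 49 and 157 bp).

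Smaller summits lay within Trl A nearer to the inner starts. They were 1026 to 1364 bp upstream of the start at 14757962, which *Trl* shares with *CG42507*, an overlapping gene on the same strand. Mock 1 and mock 2 had 2 such peaks each and siAGO2 1 and siAGO2 2 had 1 each, with 11 to 20 reads at the summit and percentiles of 28.5 to 76.2. In siAGO2 2 the main peak of Trl A, 1235 bp wide, covered the place where both mock lists had a separate small summit. These counts therefore depend in part on where the caller split the region. *CG42507* (chr3L:14747929-14757962) also contains Trl C and much of Trl B, so peaks there cannot be given to one of the overlapping genes. *Tsen34*, which encodes a tRNA splicing endonuclease subunit, overlaps the first start.

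At Trl B the fold enrichment was 9.02 in mock 1, 16.6 in mock 2, 13.1 in siAGO2 1 and 17.0 in siAGO2 2, from 66, 55, 35 and 39 reads. The percentiles were 97.8, 97.8, 94.99 and 97.5. The groups overlapped by fold, and by percentile both siAGO2 values were below both mock values. Counted from the top of the list, the peak ranked 70th in mock 1, 83rd in mock 2, 86th in siAGO2 1 and 59th in siAGO2 2. By this rank the groups overlapped. The highest summit lay 760 to 816 bp downstream of the start at 14757336 in all 4 libraries. In mock 1 and siAGO2 1 a second peak was called over the starts themselves, with summits 84 and 107 bp upstream of that start, 29 and 23 reads, and percentiles of 88.2 and 88.8. In mock 2 and siAGO2 2 the same stretch fell within a single peak of 2115 and 2006 bp. The count of *Trl* peaks per library therefore depends on where the caller split this region.

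At Trl C the fold enrichment was 9.35, 16.6, 14.4 and 13.0 in mock 1, mock 2, siAGO2 1 and siAGO2 2, from 59, 53, 35 and 45 reads, at percentiles 97.3, 97.7, 95.8 and 96.9. Mock 1 was again the lowest by fold, though not by percentile, where both siAGO2 values were the lower ones. Counted from the top of the list, Trl C ranked 83rd in mock 1, 89th in mock 2, 73rd in siAGO2 1 and 71st in siAGO2 2. By this rank both siAGO2 libraries stood nearer to the top. The summits lay 1932 to 2057 bp downstream of the nearest start, with a range of 125 bp, and 68.0% of the regions found in every list were as tight. Trl D, a further peak 2734 bp from the start, was called in siAGO2 2 alone from 7 reads, at percentile 5.80.

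The extent of the *Trl* signal placed it among the most widely covered genes. Its peaks numbered 6, 5, 5 and 5 in mock 1, mock 2, siAGO2 1 and siAGO2 2, and 0.1696%, 0.471%, 0.159% and 0.181% of genes had as many. They covered 3840, 4516, 3848 and 4584 bp, and as much was covered at 0.0219%, 0.0547%, 0.0219% and 0.0219% of genes. These shares were not corrected for gene length.

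*BEAF-32*, which encodes the boundary element-associated factor that binds clusters of CGATA, had 1 strong region. The gene (FBgn0015602, chr2R:14770469-14772630, plus strand) is compact, with 3 annotated starts. BEAF-32 B (chr2R:14771220-14771992) was called in all 4 lists, with a fold enrichment of 8.05 in mock 1, 11.8 in mock 2, 9.67 in siAGO2 1 and 8.67 in siAGO2 2. The summits held 37, 34, 24 and 24 reads and stood at percentiles 92.6, 93.2, 87.4 and 87.7. By fold the groups overlapped, and by percentile both siAGO2 values were below both mock values. Counted from the top of the list, the peak ranked 229th in mock 1, 259th in mock 2, 216th in siAGO2 1 and 283rd in siAGO2 2. By this rank the groups overlapped. Genes with a higher top peak numbered 300, 347, 300 and 378.

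The summits of BEAF-32 B lay 264 to 347 bp downstream of the start at 14771301, in coding sequence in 3 libraries and just inside an intron in mock 1. Their range of 83 bp was close to the median of regions called in all 4 libraries. The antisense gene *asRNA:CR42254* starts at 14771295, so 2 divergent starts lie under the merged region. The peak called in siAGO2 1 (chr2R:14771422-14771903) covered neither of them. The signal cannot be given to one of the 2 starts. A weaker region upstream, BEAF-32 A (chr2R:14770738-14770974), was called in mock 2 from 13 reads (percentile 50.0) and in siAGO2 1 from 10 reads (percentile 0.381).

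*mod(mdg4)*, which encodes many protein isoforms through trans-splicing of a common 5′ part to alternative 3′ parts, had no peak above percentile 68.2. That peak, in mock 1, was above the median of its list. The gene (FBgn0002781, chr3R:21350846-21377401, minus strand) has 1 annotated start and contains 23 annotated *pre-mod(mdg4)* genes, 9 of them on the opposite strand. The highest peak stood at percentile 68.2 in mock 1, 38.1 in mock 2, 23.3 in siAGO2 1 and 8.10 in siAGO2 2, with 23, 17, 12 and 11 reads at the summit. Both siAGO2 values were below both mock values, but these peaks were not at one place.

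None of the 4 regions of *mod(mdg4)* was called in all 4 lists. Region A (chr3R:21377246-21377392), 117 bp from the start, was called in mock 2 alone from 10 reads. Region B (chr3R:21376811-21377050), in coding sequence about 500 bp downstream of the start, was called in mock 1 and mock 2 and held the highest peak of mock 1. Region C (chr3R:21376302-21376647), in the next intron, was called in mock 2 and siAGO2 1 and held the highest peak of both. Region D (chr3R:21372756-21372950), in coding sequence 4515 bp downstream of the start, was called in siAGO2 2 alone and was the only peak of *mod(mdg4)* in that list. Its summit lay nearer to the start of *pre-mod(mdg4)-AA*, 689 bp downstream of it and within that gene, so this peak cannot be given to one of the overlapping genes. All but 1 of the 6 peaks thus had summits 117 to 941 bp from the start, in the common 5′ part.

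*Cp190* and *su(Hw)*, which encode the shared cofactor and the zinc finger protein of the gypsy insulator, were each assigned 1 weak peak, and each lay in a neighbouring gene. The *Cp190* peak (chr3R:15275657-15275803) was 498 bp upstream of the start of *Cp190* (FBgn0000283, chr3R:15270432-15275241, minus strand), in coding sequence of the divergent gene *CG4338*. Its fold enrichment was 3.37 from 14 reads, at percentile 14.3 of mock 2. The *su(Hw)* peak (chr3R:14309302-14309498) was 851 bp upstream of the start of *su(Hw)* (FBgn0003567, chr3R:14304455-14308589, minus strand), in coding sequence of *Polr2I*, which encodes a Pol II subunit. Its fold enrichment was 2.87 from 13 reads, at percentile 2.76 of mock 2. In the other 3 lists the nearest peak to a *Cp190* start was 4706 to 11156 bp away, and to the *su(Hw)* start 10123 to 21816 bp away.

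*CTCF*, which encodes the fly counterpart of the main vertebrate insulator protein, had no CDK9 peak in any list. The gene (FBgn0035769, chr3L:7353578-7356713, minus strand) has 1 start, and the nearest peak was 3793, 3774, 3803 and 3880 bp from it in mock 1, mock 2, siAGO2 1 and siAGO2 2. The lists hold only peaks that passed the caller, whose weakest entries had folds of 1.57, 2.43, 2.44 and 2.40 and summits of 10, 7, 5 and 6 reads at the fewest. CDK9 signal at *CTCF* was thus not called in these lists, which does not show that it is absent.

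Knockdown of AGO2 was then compared with mock at the 4 regions of these genes that were called in every list. Within each library, the 1022 regions called in every list were ranked among themselves, and the rank was turned into a normal score. The score removes a common scale but not every effect that depth can have on the order. The percentiles above rank all peaks of a list, so percentiles and scores can differ in direction, as at Trl C. A limma model was fitted over all 1022 regions. BEAF-32 B scored 0.77 in mock 1, 0.67 in mock 2, 0.82 in siAGO2 1 and 0.59 in siAGO2 2, and Trl A scored 1.90, 1.94, 1.78 and 1.81. The libraries of the 2 groups overlapped at BEAF-32 B, and both siAGO2 scores were below both mock scores at Trl A. Scores were 1.49, 1.40, 1.38 and 1.58 at Trl B and 1.39, 1.36, 1.47 and 1.48 at Trl C, so that the groups overlapped at Trl B and both siAGO2 scores were the higher ones at Trl C.

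None of the 4 regions passed the limma test, and 0 of 1022 regions (0%) had an adjusted p under 0.05, with 66 (6.46%) under 0.05 before adjustment, none of them among these 4. The difference, siAGO2 minus mock, was −0.01 ± 0.36 (SE) at BEAF-32 B (limma adjusted p = 0.988) and −0.13 ± 0.35 at Trl A (limma adjusted p = 0.942). It was 0.03 ± 0.36 at Trl B (limma adjusted p = 0.983) and 0.10 ± 0.35 at Trl C (limma adjusted p = 0.948). Each difference was smaller than its standard error, and over all 1022 regions the middle 50% lay between −0.324 and 0.339 (the plot of rank changes).

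**Figure D3:**
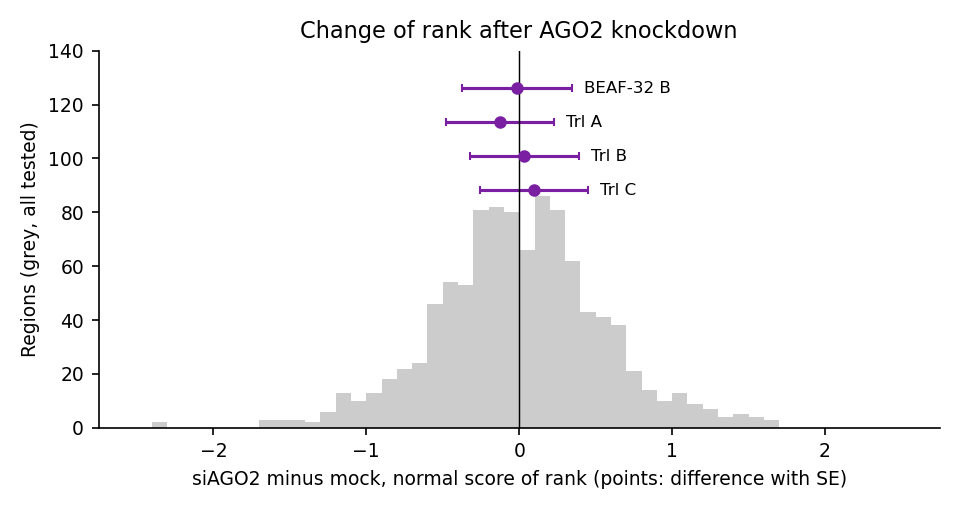
Difference in normal score of rank, siAGO2 minus mock (horizontal axis, no unit), for the 1022 regions called in all 4 lists (grey, number of regions on the vertical axis). The 4 purple points with standard errors are the regions of *BEAF-32* and *Trl*, placed at arbitrary heights, and all of them lie between −0.13 and 0.10.

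The highest peak of each gene was compared on the percentile scale. For *Trl* it stood at 99.2 ± 0.178 (SD, n = 2) in mock and 98.1 ± 0.480 in siAGO2, for *BEAF-32* at 92.9 ± 0.423 and 87.6 ± 0.218, and for *mod(mdg4)* at 53.2 ± 21.3 and 15.7 ± 10.8. An exact permutation test (two-sided) gave p = 0.333 for each, the smallest that 2 against 2 libraries allow. All 3 genes were lower in both siAGO2 lists than in both mock lists, as were 43.8% of the 1377 genes with a peak in all 4. The median difference of those genes was −8.17 percentile points, against −1.08 at *Trl*, −5.36 at *BEAF-32* and −37.4 at *mod(mdg4)*, and 5.81% of the 1377 genes had a difference as low as *mod(mdg4)*. With percentiles taken only among the 1022 regions called in every list, the difference was −0.54 ± 6.49 (SE) at BEAF-32 B and −0.91 ± 5.85 at Trl A. The siAGO2 lists are the shorter ones, and the part of list length in the differences over whole lists was not tested.

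On the scale of reads, the summits were set against the genome-wide background of each library, with exact Poisson intervals (95%, counting error only). Trl A reached 30.6 times the background in mock 1 (interval 23.8 to 38.6), 72.6 in mock 2 (58.3 to 89.5), 54.1 in siAGO2 1 (39.3 to 72.6) and 59.1 in siAGO2 2 (44.0 to 77.7). Mock 1 was below the other 3 libraries there, and its interval did not meet theirs. BEAF-32 B reached 16.1 in mock 1 (11.4 to 22.3), 28.1 in mock 2 (19.4 to 39.2), 29.5 in siAGO2 1 (18.9 to 43.9) and 27.8 in siAGO2 2 (17.8 to 41.4). Mock 1 was again lowest, as it was for the median of all peaks. Mock 2 lay within the intervals of both siAGO2 libraries at BEAF-32 B, Trl B and Trl C (the plot of summit reads). At Trl A, mock 2 (72.64) lay within the interval of siAGO2 2 and just above the upper limit of siAGO2 1 (72.58).

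**Figure D4:**
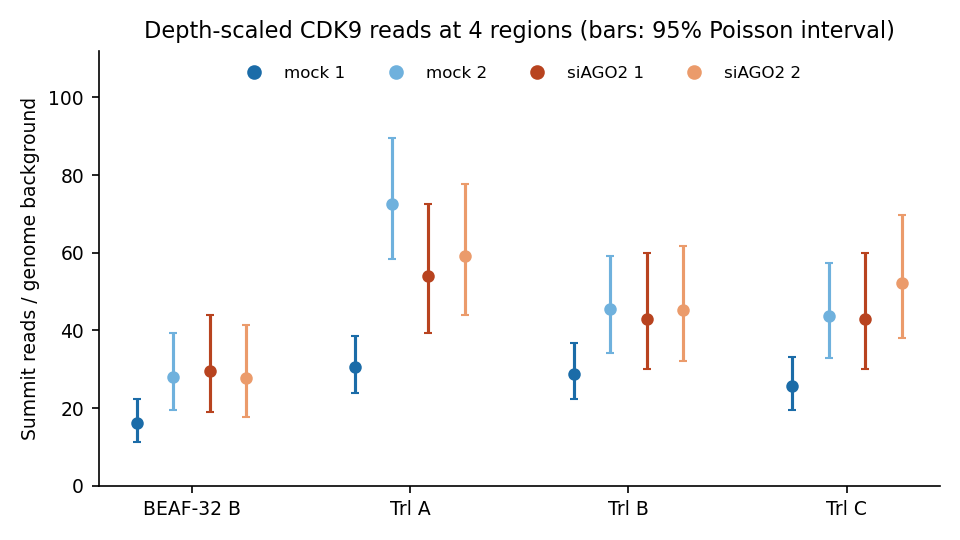
Reads at the summit divided by the genome-wide background of the library (vertical axis, ratio) at the 4 regions called in every list, for each library (colours), with exact 95% Poisson intervals as bars. Mock 1 is lowest at each region, and mock 2 and both siAGO2 libraries overlap in their intervals.

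Motif letters near the summits differed between the genes (the plot of motif copies). GAGAG, on both strands, occurred within 150 bp of the summit in 6 of 12 regions, 45.96% of all 5531 regions and 69.1% of those called in all 4 lists. Trl B held 9 copies, and 3.25% of all regions and 9.69% of those in all 4 lists held as many. Trl A held 4 (13.9% and 35.8%) and Trl C held 3 (18.7% and 44.9%). Neither *BEAF-32* region held a copy. In the whole of each region, from its first to its last base, Trl B held 24 copies in 2202 bp, Trl A 10 in 1649 bp and Trl C 8 in 1033 bp. These counts were not scaled by width.

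CGATA, the core read by BEAF-32, occurred in 5 of 12 regions and 34.4% of all regions. BEAF-32 B, within the gene for that protein, held 5 copies within 150 bp of its summit, and 1.55% of all regions and 3.62% of those in all 4 lists held as many. It held 7 within 300 bp, against 0.633% and 1.76%. Trl A, B and C held 0 copies within 150 bp of their summits, and 2, 1 and 2 copies in their whole regions. TATCGATA, the longer element of the factor DREF that contains CGATA, was in 0 of 12 regions and 3.51% of all. A match is a run of letters in the genome and does not show that a protein was bound.

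**Figure D5:**
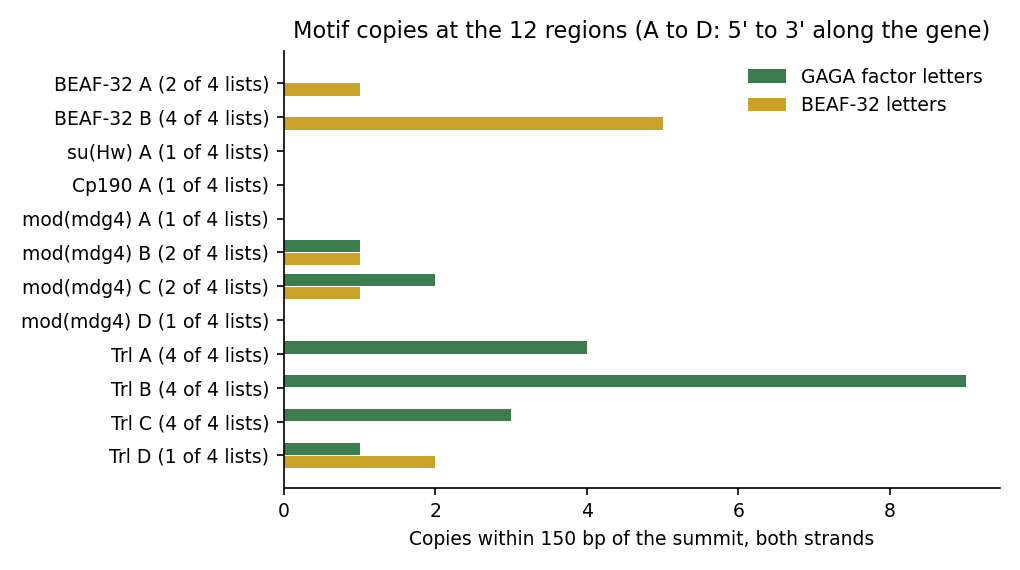
Copies of the letters of GAGA factor (green) and BEAF-32 (yellow) within 150 bp of the summit (horizontal axis, copies on both strands) in the 12 regions of the 6 genes (vertical axis, with the number of lists that called each). GAGA factor letters reach 9 copies at Trl B and BEAF-32 letters 5 copies at BEAF-32 B, and the regions of *Cp190* and *su(Hw)* hold neither.

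Of the 35 summits, 26 were intronic, and 21 of these were in *Trl*, where every summit was. Positions along a gene follow in part from how peaks were assigned, and peaks of one gene are not independent of each other, so they were not compared with the whole lists.

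Genes of related function were read with the same rule. Of 11 other insulator DNA-binding proteins, 1 had a peak in all 4 lists, *dwg* (mean percentile of its highest peak 63.3), which encodes Zw5, 1 had a peak in 1 to 3 lists and 9 had none. Of 10 insulator cofactors, 3 had a peak in all 4 lists, 5 in some and 2 in none. The 3 were *fs(1)h* (96.2), which encodes the fly BET bromodomain protein, *shep* (89.9), an RNA-binding modulator of the gypsy insulator, and *Rm62* (70.1), an RNA helicase. Of 6 cohesin and condensin genes, 1 had a peak in all 4 lists, *Nipped-B* (79.5), which encodes the cohesin loader, with 2 in some and 3 in none.

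Among 10 genes for partners of GAGA factor, 6 had a peak in all 4 lists, 3 in some and 1 in none, beside 7.53% of all genes in all 4. The strongest was *lola* (99.2), which like *Trl* and *mod(mdg4)* encodes BTB proteins, followed by *tna* (89.7), a trithorax group gene, and *Adf1* (74.4), a transcription factor gene. Longer genes have more room for a peak, and gene length was not taken into account.

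The regions most like Trl A over the 4 normal scores were nearest to starts of *Eip74EF*, an ecdysone-induced transcription factor gene (distance 0.0661), *tai*, a steroid receptor coactivator gene (0.137), and *lncRNA:CR45565* (0.205).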

How the data were processed

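CDK9 ChIP-seq peak lists of 2 mock and 2 siAGO2 libraries were analysed. The authors used cutadapt on 50 bp single-end reads, bowtie2 for alignment to dm6, removed reads of mapping quality under 20 and duplicates (Picard), and called peaks per replicate with MACS2 2.1.1.20160309 against the paired input. Peaks were called as punctate; other MACS2 parameters for CDK9 are not given in the sources used here. Each deposited list gives a fold (ratio of summit reads to local background, each plus 1), −log10 p-value and q-value, a score (10 times −log10 q) and the summit position.

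Summit reads and background were recovered from fold and p under a Poisson model, which solved 100% of peaks (tolerance 0.0005 in −log10 p). The lowest background of a list was taken as its genome background. Total depth is unknown. Gene models were from Ensembl release 115 (7 chromosomes). Peaks overlapping by 1 bp were merged. Normal scores of the rank of −log10 q, taken within each library among the regions tested, were fitted with limma 3.58.1 in R 4.3.3. The adjustment was Benjamini-Hochberg over all regions, after tests on simulated data. Single values used an exact permutation test (scipy 1.17.1). All 6 genes were named, and of each related list at most the 3 genes with the highest mean percentile among those in all 4 lists, where *SA* was matched as *SA1*. Members and lists were chosen with earlier results of these data known. Alternatives covered the window, peak thresholds, the measure ranked, merging, the replicate block and each library left out.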

Additional observations from a re-analysis of the deposited data

How the results depend on the processing

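*Trl* and *BEAF-32* had a peak in all 4 lists under every rule tried for assigning peaks. With only peaks above the median of their list, or with the 1707 strongest peaks of every list, the mean over mock libraries changed from 4 to 2.5 member genes and from 10 to 6.5 member peaks. With the 1707 strongest peaks the siAGO2 means were also 2.5 genes and 6.5 peaks, so the counts of the groups were equal once the lists were of one length, and with peaks above the median they were 2 and 5.5. Under both settings *mod(mdg4)* lost its peak in at least 1 list, which left 2 members in place of 3 with a peak in all 4. The share of all genes was then 4.23% with peaks above the median and 5.67% with the strongest peaks. Leaving out 1 library at a time gave 3 to 5 genes and 8 to 12 peaks in mock, and 3 to 3 genes and 7 to 8 peaks in siAGO2.

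With limma on log2 summit reads over genome background, 12 regions had an unadjusted p under 0.05, and the median of all regions was 0.35. On that scale BEAF-32 B was at 0.43, Trl A at 0.26, Trl B at 0.29 and Trl C at 0.50, each with a standard error of 0.48. Trl A and Trl B were thus below this median and BEAF-32 B and Trl C above it, each by less than its standard error. With fold in place of −log10 q, Trl A was at 0.047, and with regions called in at least 3 libraries Trl B was at −0.014. Leaving out 1 library at a time gave 0 to 0 regions at an adjusted p under 0.05 and 43 (without mock 1) to 104 (without siAGO2 1) unadjusted. The sign changed at BEAF-32 B without mock 1 (0.032) and without siAGO2 2 (0.094), within a range of −0.11 to 0.094, and at Trl B without mock 2 (−0.013) and without siAGO2 2 (−0.065), within −0.065 to 0.13. No cause was tested. Using the replicate number as a block gave 2 regions at an adjusted p under 0.05, neither of them higher in siAGO2, and 78 unadjusted. No region of *BEAF-32* or *Trl* was among the 2. Deviations of same-numbered libraries had r = 0.00101 over 1022 regions. Ranks within a list remove any effect common to a whole library, so this value cannot show whether same-numbered libraries shared a culture or batch. Whether the libraries are paired is thus not known.

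Without 1 library at a time, the difference in percentile of the highest peak was −5.66 to −5.06 at *BEAF-32*, −1.42 to −0.74 at *Trl* and −52.5 to −22.4 at *mod(mdg4)*. The result at *mod(mdg4)* rests most on mock 1, without which it was −22.4. Summits of 7 to 20 reads limit what can be said of the weaker peaks.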

Other observations

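The letters of other factors were counted within 150 bp on either side of the summit on both strands. AGNNGGCGC, for CTCF, was in 1 of 12 regions and 7.97% of all regions. TGCATA, for Su(Hw), was in 1 of 12, the region assigned to *su(Hw)*, and 8.23% of all. GGTCACAC, for M1BP, was in 0 of 12 and 2.71% of all. TATAAA, the TATA box, was in 1 of 12 and 10.9% of all, and TCAGT, of the initiator, in 3 of 12 and 36.4% of all. Within 300 bp, TATAAA was in 5 of 12 (31.7% of all) and TCAGT in 7 of 12 (60.2% of all).

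Peaks called in a single list made up 5 of the 12 regions, and 56.6% of all regions. Regions in all 4 lists made up 4 of the 12, and 18.5% of all.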
